A study of Rattus norvegicus with 9 samples.

Results

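Transthyretin and 7 genes that carry, convert, sense or report thyroid hormone were described in the rat, across the hippocampus (HC), the prefrontal cortex (PFC) and blood. The 8 genes were Ttr, Slco1c1, Dio2, Dio3, Thra, Thrb, Crym and Klf9, out of 14506 genes that had a probe set with a single gene symbol on the array. Where a gene had several probe sets the brightest on average was to be used, but each of the 8 had 1 probe set, so nothing was selected by level. Tissue values of Ttr and of the transporter gene Slco1c1 were already known when the 8 genes were chosen. Their known differences, in all comparisons for Ttr and against blood for Slco1c1, are therefore given as a description without a test.

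RNA came from untreated male Wistar rats that were 6 weeks old at delivery, were housed 2 per cage for 1 week and were killed by decapitation. Blood was collected into PAXgene tubes, and HC and PFC were punched out of frozen coronal sections of 120 µm, so each brain sample held all the cells of the punch, vessels included. The study asked which genes can be measured in blood and in these brain regions alike. Blood, HC and PFC of rats 2, 5 and 7 were each hybridized once to a Rat Gene 1.0 ST array, which gave 3 arrays per tissue and 9 in all, with the same 3 animals in every tissue.

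Values are RMA values on the log2 scale, so a difference of 1 is a doubling of the signal, and values of different probe sets were not set against each other. A gene counted as present where its mean over the 3 arrays of a tissue exceeded 6.2. Because this cut-off lies near the middle of the array, a background limit was also taken in each tissue, namely the 95th percentile of 1297 probe sets of chemosensory (odorant, vomeronasal and taste) receptors, which was 5.53 for blood, 4.88 for HC and 4.85 for PFC. The array means lay between 6.15 and 6.2. Among the probe sets tested, the median SD over 3 arrays was 0.221 for blood, 0.0679 for HC and 0.0775 for PFC, and the fit pooled these unequal spreads. Marker genes were used to check the labels. All 14 neuronal and all 13 astrocyte markers exceeded the cut-off in both brain regions, which does not separate HC from PFC. All 11 white blood cell markers did so in blood. Of 8 tested markers of hippocampal fields, 7 were higher in HC than in PFC. Of 6 tested markers of neocortical layers, Cux1 alone was called (adjusted p under 0.05), at -0.74 for HC minus PFC. This list gave the PFC label little support. In each brain region 2 of 6 red cell markers were present. Of the white blood cell markers, 2 were present in HC and 1 in PFC. In HC minus PFC, 3 red cell markers and Lyz2 were called lower and Cd3e higher. The part of blood in the punches was not tested.

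Thyroid hormone reaches the brain mainly as thyroxine, which is bound to carriers such as transthyretin in blood and cerebrospinal fluid and crosses the vessel wall and the choroid plexus through transporters. Inside the brain, the deiodinase Dio2 turns thyroxine into the active triiodothyronine, whereas Dio3 inactivates both hormones. Triiodothyronine acts on nuclear receptors encoded by Thra and Thrb, which bind DNA near their target genes, often together with a retinoid X receptor, and recruit corepressors or coactivators. In the brain the system is known for its part in development, myelination and the maturation of neurons.

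In HC, 7 of the 8 genes were present, Dio3 being the exception. In PFC, 6 were present, Ttr and Dio3 being below the cut-off. In blood, Thrb and Klf9 alone were present, although 5 genes (Dio3, Thra, Thrb, Crym and Klf9) lay above the background limit there. The panels of values by array show these levels for each gene.

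**Figure D1:**
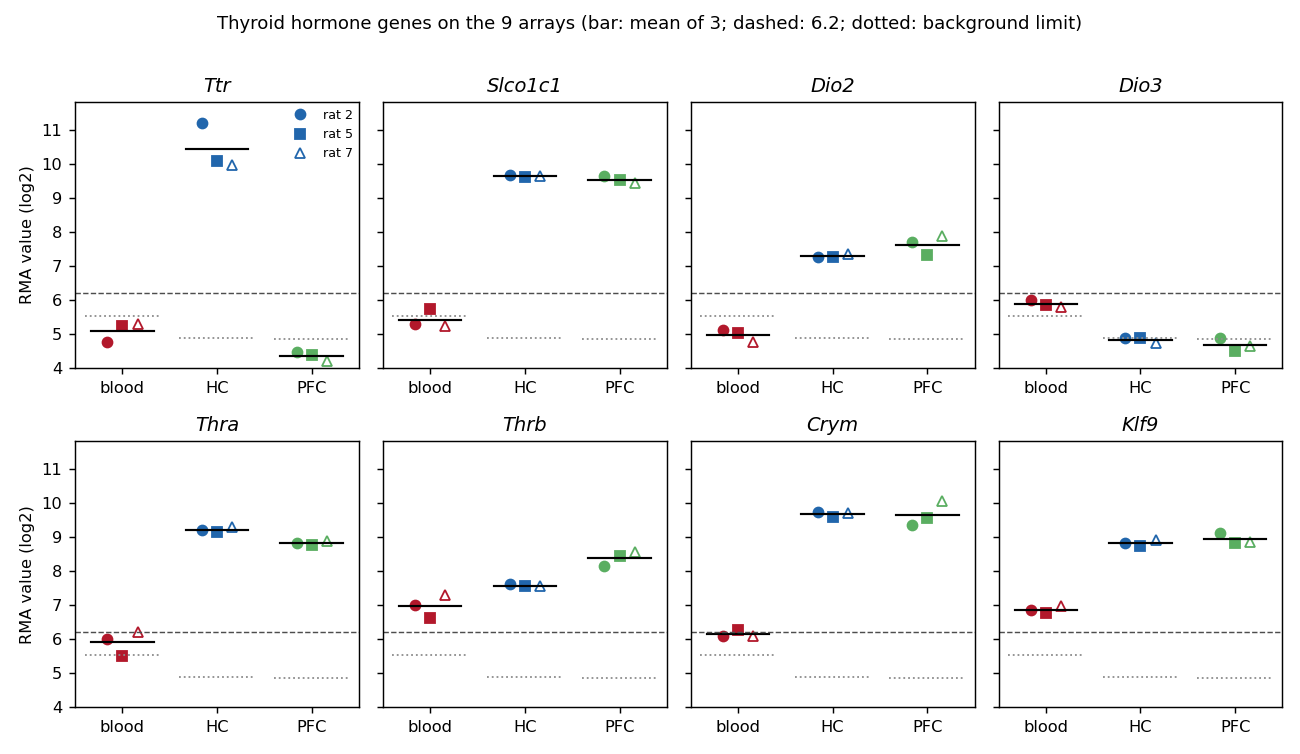
RMA values (log2, y axis) of the 8 genes in blood, HC and PFC, 1 point per array with a symbol for each rat, bars at the mean of 3 arrays, a dashed line at the presence cut-off of 6.2 and dotted lines at the background limit of each tissue. Ttr is high in the HC arrays alone (9.96 to 11.20), Dio3 is highest in blood but under 6.2 everywhere, and the remaining genes are higher in both brain regions than in blood.

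Ttr encodes transthyretin, a carrier of thyroxine and of retinol-binding protein that within the brain is made by the epithelium of the choroid plexus. In HC its probe set (10800426) read 11.20, 10.09 and 9.96 in rats 2, 5 and 7. In PFC the values were 4.45, 4.39 and 4.20, and in blood they were 4.77, 5.22 and 5.30. All 3 HC arrays were far above the 6 others, and both other tissues were below their background limits. Ttr averaged 10.42 ± 0.680 (SD, n = 3) for HC, 4.35 ± 0.131 for PFC and 5.09 ± 0.285 for blood. These means stood at percentiles 97.1, 23.1 and 28.5 of all probe sets of the tissue.

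The HC minus PFC difference of Ttr was 6.07, and per animal it was 6.75, 5.70 and 5.76 in rats 2, 5 and 7. Since the PFC values were not above background, the difference has only a bound, which was 5.57 with the PFC values raised to the background limit. Against blood the HC difference was 5.32, or 4.88 with the blood values raised in the same way. The PFC minus blood difference of -0.75 was between 2 sets of values below background. The HC array of rat 2 was the highest, and without it the HC minus PFC difference was 5.68.

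Markers of the choroid plexus were followed in the same arrays, because a punch of HC can include this tissue and because Ttr is one of its main products. Of 22 listed markers, 21 were on the array, and 5 of them were present in HC (Enpp2, Car12, Trpm3, Slc13a4 and Igfbp2). The same number was present in PFC. The mean over the 21 probe sets was 6.04, 5.72 and 5.77 in the HC arrays of rats 2, 5 and 7, against 5.61, 5.49 and 5.54 in PFC and 5.78, 5.76 and 5.64 in blood. The HC array of rat 2, which had the highest Ttr, also had the highest marker mean of the 9.

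By their HC means, most defining markers of the plexus epithelium stayed below the presence cut-off, but several were higher in rat 2. The genes named in this paragraph had means below 6.2 in every tissue and were named after their values were seen. Kl, which encodes the klotho protein, read 6.33, 5.57 and 5.38 in HC of rats 2, 5 and 7 and 5.35, 4.99 and 5.27 in PFC. The chloride channel protein gene Clic6 read 5.57, 4.72 and 4.89 in HC and 3.87 to 3.98 in PFC. The tight junction gene Cldn2 read 5.24, 4.62 and 4.74 in HC and 3.66 to 3.80 in PFC. Both Clic6 and Cldn2 were thus higher in every HC array than in any PFC array, and Cldn2 in rats 5 and 7 and Clic6 in rat 5 were below the HC background limit. The potassium channel gene Kcnj13 did not follow this order, since its HC values of 5.94, 5.15 and 5.20 lay on both sides of the PFC values (5.53 to 5.75). Calml4 was higher in HC without an excess in rat 2, at 5.73, 5.73 and 5.85 against 3.98 to 4.38 in PFC. Col8a1 was lower in HC, at 4.56, 4.97 and 4.77 against 5.05 to 5.19 in PFC. For Kcne2, Steap1 and Prlr the values of the regions overlapped.

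Rat 2 had the highest of the 3 HC values for 16 of the 21 markers (76.2%), against 31.3% of all 16884 probe sets tested, and its median excess over the mean of the other 2 HC arrays was 0.26 for the markers and 0.00 for all tested. Only 8 of the 21 markers passed the filter. Over all 14506 genes with a single symbol, filtered or not, the share was 30.2% and the median excess 0.00. Of the 21 markers, 16 in rat 2, 9 in rat 5 and 11 in rat 7 were above all 3 PFC arrays, against 32.8%, 31.6% and 33.6% of all probe sets tested. Over all genes with a single symbol these shares were 28.6%, 28.7% and 29.2%. Ttr had an excess of the same direction in rat 2 and stood above PFC by over 5 in rats 5 and 7 as well. The part of choroid plexus tissue in the Ttr values was not tested.

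**Figure D2:**
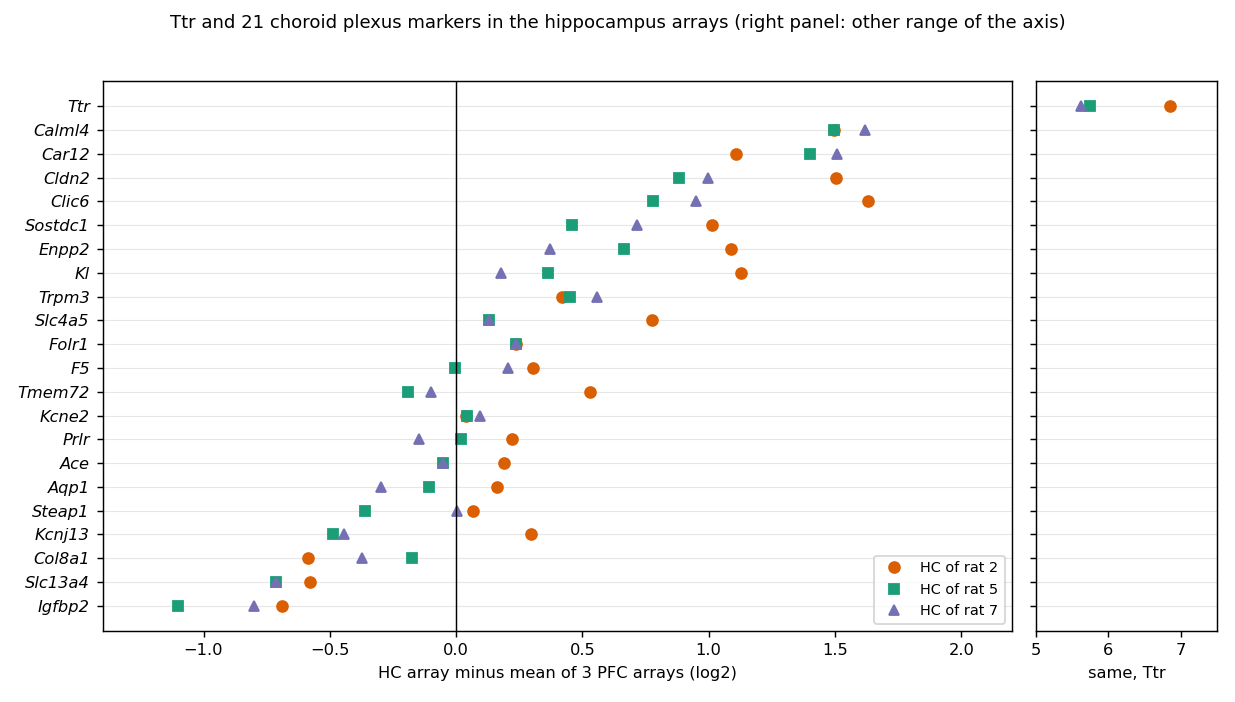
HC array minus the mean of the 3 PFC arrays (log2, x axis) for Ttr and 21 choroid plexus markers (y axis), 1 symbol for the HC array of each rat, with Ttr in the right panel on another range of the axis. Ttr lies between 5.62 and 6.85, and all markers lie far lower, from -1.10 (Igfbp2 in rat 5) up to Clic6 in rat 2. The array of rat 2 is the highest of the 3 for 16 of the 21 markers.

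By the test, 2 of the 8 choroid plexus markers that passed the filter were higher in HC than in PFC and 2 were lower. Of all probe sets tested, 4.51% were higher and 4.66% lower. Car12, a carbonic anhydrase, was higher by 1.34 (SE 0.206, adjusted p = 0.00263), with HC values of 8.82, 9.12 and 9.23 that were lowest in rat 2. Enpp2, which encodes autotaxin and is also used by oligodendrocytes, was higher by 0.71 (SE 0.161, adjusted p = 0.0229). It read 10.46, 10.03 and 9.74 in HC, and without the HC array of rat 2 the difference was 0.52 with an adjusted p of 0.0539. Igfbp2, a binding protein of insulin-like growth factors, differed by -0.86 (SE 0.138, adjusted p = 0.00336) and the sulfate transporter gene Slc13a4 by -0.67 (SE 0.142, adjusted p = 0.0161), both lower in HC. These calls depended on the arrays used. Of 23 settings, Enpp2 lost its call in 8 (adjusted p up to 0.195), Slc13a4 in 8 (up to 0.13), Car12 in 2 (up to 0.0825) and Igfbp2 in 1 (0.0673), each at its highest without rat 5 or rat 7.

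Markers of the ventricle lining and of the meninges were counted in the same way. Of 11 ependymal markers on the array 3 were tested, with HC minus PFC differences of 0.01 to 0.05, and 0 were called by limma, at an unadjusted p under 0.05 or in the fit of the 6 brain arrays. Of 10 tested meningeal markers 0 were higher by any of these counts and 4 were lower in HC (6 at an unadjusted p under 0.05 and 7 in the fit of the 6 brain arrays), led by Ogn, a proteoglycan gene, at -1.64 (SE 0.0823, adjusted p = 4.38e-06). Of all probe sets tested, 4.66% were lower in HC, and 25.7% were called in either direction in the fit of the 6 brain arrays. The share of all probe sets at an unadjusted p under 0.05 is not given here.

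Slco1c1 encodes the organic anion transporter that carries thyroxine across brain endothelium, choroid plexus and astrocytes. Its probe set (10859511) read 9.67, 9.61 and 9.62 in HC and 9.65, 9.51 and 9.44 in PFC of rats 2, 5 and 7. In blood it read 5.29, 5.73 and 5.23, with a mean below the background limit. The brain minus blood differences were 4.22 in HC and 4.12 in PFC, or 4.03 and 3.93 with the blood values raised to the limit, and the arrays of blood and brain did not overlap. The share of all probe sets with blood and brain arrays apart is not given, here or for the genes below. Of all probe sets tested, 83.9% were called in HC minus blood and 84.0% in PFC minus blood.

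Between the regions, the HC minus PFC difference of Slco1c1 was 0.10 (SE 0.131, 95% interval -0.19 to 0.39, adjusted p = 0.819), which was within the spread between arrays. The values of the regions overlapped, and the sign was the same in 3 of 3 rats (0.02, 0.09 and 0.18). Of 14 tested endothelial markers 1 was lower in HC, namely the adhesion gene Esam at -0.32 (SE 0.0807, adjusted p = 0.0369, and adjusted p = 0.089 with the rat as a block). Of 13 astrocyte markers 1 was called, the filament gene Gfap, higher in HC by 1.55 (SE 0.177, adjusted p = 0.000427), and 7 were higher in the fit of the 6 brain arrays. The shares of all probe sets called in either direction were 9.16% in the fit of all arrays and 25.7% in that of the 6 brain arrays.

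Dio2, the deiodinase that activates thyroxine and is used in the brain mainly by glial cells, was higher in both brain regions than in blood. Its probe set (10891402) read 7.26, 7.25 and 7.35 in HC, 7.69, 7.31 and 7.87 in PFC, and 5.12, 5.03 and 4.75 in blood. Blood was below both regions in every array and below its background limit. HC minus blood was 2.32 (SE 0.150, adjusted p = 2.3e-07) and PFC minus blood 2.66 (SE 0.150, adjusted p = 8.37e-08), or 1.75 and 2.09 with the blood values raised to the limit. Dio2 passed the filter through its brain values alone, so the direction of these differences was built in.

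Between HC and PFC, Dio2 differed by -0.34 (SE 0.150, 95% interval -0.67 to -0.00, adjusted p = 0.261), so PFC had the higher mean but the call was not made. The difference was negative in 3 of 3 rats (-0.44, -0.05 and -0.52), and the lowest PFC array, that of rat 5, lay within the range of HC. With array weights estimated per tissue the adjusted p was 0.0488. The median HC minus PFC difference of the 13 astrocyte markers was 0.15, with Gfap alone called, and their part in the Dio2 values was not tested.

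Dio3, the inactivating deiodinase, was the only one of the 8 genes with its highest values in blood. Its probe set (10892872) read 6.0, 5.85 and 5.79 in blood, 4.87, 4.87 and 4.72 in HC, and 4.87, 4.49 and 4.65 in PFC. All blood values were above the background limit of blood and under the presence cut-off, and the mean of each brain region was below its own background limit, so Dio3 did not pass the filter and has no test in the main fit. Without the filter, HC minus blood was -1.06 (SE 0.116, adjusted p = 2.27e-05) and PFC minus blood -1.21 (SE 0.116, adjusted p = 8.94e-06). In that fit 75.5% of all probe sets were called in HC minus blood, 8463 higher and 13581 lower. The background limit was itself higher in blood than in brain (5.53 against 4.88 and 4.85), and its part in the Dio3 difference was not tested. With the arrays centred on a housekeeping panel the differences were -2.24 (adjusted p = 1.73e-07) and -2.46 (adjusted p = 8.82e-08). On that scale 14828 probe sets were lower and 3240 higher in HC than in blood. HC minus PFC without the filter was 0.15 (SE 0.116, adjusted p = 0.848).

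The receptor genes Thra and Thrb were both higher in brain than in blood, and in opposite order between HC and PFC. Sequence upstream of each start is shown because these are the 2 tested genes whose HC and PFC arrays did not overlap. The arrays of the regions did not overlap for 42.0% of all probe sets tested either, so this sets the 2 genes apart only among the members. The stretches come from RefSeq on assembly GRCr8, 130 bases before the annotated start on the strand of the gene, at chr10:84198011-84198140 (plus strand) for Thra and chr15:10461447-10461576 (minus strand) for Thrb. Capitals mark GC boxes, the letters GGGCGG on either strand, and overlapping matches run together.
Thra: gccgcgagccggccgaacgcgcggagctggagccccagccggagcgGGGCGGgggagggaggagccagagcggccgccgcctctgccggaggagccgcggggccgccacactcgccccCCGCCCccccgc
Thrb: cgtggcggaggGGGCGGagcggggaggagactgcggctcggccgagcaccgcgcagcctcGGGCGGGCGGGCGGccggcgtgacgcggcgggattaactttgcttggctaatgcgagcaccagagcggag
The Thrb start used here lies inside the annotated span of the gene. Both stretches were rich in G and C.

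In the whole 300-base windows, which reach 50 bases past the start, the GC content was 79.7% for Thra and 76.0% for Thrb, against a median of 51.7% over the 33469 promoter windows of the table. The GC box was found 5 times for Thra (not at all in its second window, inside the gene) and 4 times each for Thrb and Dio3, and it occurs in 33.1% of all windows. Windows were matched for Ttr, Dio2, Dio3, Thra, Thrb and Klf9. The Ttr window, like that of Thrb, did not lie at the annotated start of the gene. The site AGGTCA, to which thyroid hormone receptors bind in pairs, was in 16.2% of all windows and in none of those of the 6 genes, and its spaced repeat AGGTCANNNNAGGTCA was in 2 of all windows. Every motif was searched on both strands. The letters TATAAA, found in 14.2% of windows, began at position -31 from the start of Dio3 and at -220 from that of Dio2. These are matches of letters in short windows and say nothing of binding.

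Thra encodes the receptor isoforms that predominate in neurons. Its probe set (10738056) read 9.21, 9.14 and 9.27 in HC, 8.80, 8.76 and 8.87 in PFC, and 5.98, 5.51 and 6.21 in blood. The order was HC, PFC and then blood in each of the 3 rats, without overlap between tissues. HC minus blood was 3.30 (SE 0.155, adjusted p = 2.26e-08) and PFC minus blood 2.91 (SE 0.155, adjusted p = 5.64e-08). Thra passed the filter through its brain values alone, so the direction of these differences was built in.

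The HC minus PFC difference of Thra was 0.39, with 0.40, 0.38 and 0.40 in rats 2, 5 and 7, and all HC arrays were above all PFC arrays. In the fit of all 9 arrays it did not pass (SE 0.155, 95% interval 0.05 to 0.74, adjusted p = 0.191). That fit pools the spread of the tissues, and the SD of Thra was 0.359 in blood, 0.0641 in HC and 0.0556 in PFC. In the fit of the 6 brain arrays alone the same difference had an SE of 0.0539 and an adjusted p of 0.00236, or 0.00348 with the rat as a block. It also passed without the blood array of rat 5, the lowest of the 3 (adjusted p = 0.0108). Of all probe sets tested, 25.7% were called in the fit of the brain arrays against 9.16% in the fit of all arrays.

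Thrb encodes the second receptor gene, whose products include the isoforms that restrain the release of thyroid-stimulating hormone. Its probe set (10782454) read 8.15, 8.44 and 8.56 in PFC, 7.60, 7.54 and 7.54 in HC, and 7.00, 6.62 and 7.29 in blood. The order was PFC, HC and then blood in 3 of 3 rats, with no overlap, and the blood values were above both the presence cut-off and the background limit.

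HC minus PFC was -0.82 for Thrb (SE 0.164, 95% interval -1.19 to -0.46, adjusted p = 0.0113), which is a value 1.77-fold higher in PFC. Per rat the difference was -0.55, -0.90 and -1.02. The call was kept with the rat as a block (adjusted p = 0.0148) and in the fit of the 6 brain arrays (adjusted p = 0.00154). It was lost when the PFC array of rat 5 (-0.80, adjusted p = 0.0542) or that of rat 7 (-0.74, adjusted p = 0.0572) was left out, and without all arrays of rat 2 (-0.96, adjusted p = 0.0882), rat 5 (-0.79, adjusted p = 0.0662) or rat 7 (-0.73, adjusted p = 0.0936). Of 14 neuronal markers 1 was called between the regions, against 9.16% of all probe sets tested. This was Tubb3 at -0.46 (SE 0.115, adjusted p = 0.0365), also lower in HC, a call lost in 10 of 23 settings (adjusted p up to 0.231, without rat 2). In the fit of the 6 brain arrays 4 neuronal markers were higher and 6 lower, where 25.7% of all probe sets were called.

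Against blood, Thrb was higher by 1.41 in PFC (SE 0.164, adjusted p = 1.94e-05) and by 0.59 in HC (SE 0.164, adjusted p = 0.00697). The HC difference depended on the scaling. With the arrays centred on a housekeeping panel it was -0.58 (adjusted p = 0.00143), lower in HC, and the PFC difference was 0.17 (adjusted p = 0.229). Without rat 5 the HC difference was 0.43 (adjusted p = 0.0575).

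Crym encodes mu-crystallin, which binds triiodothyronine in the cytosol. Its probe set (10940557) read 9.72, 9.57 and 9.71 in HC, 9.35, 9.54 and 10.06 in PFC, and 6.09, 6.26 and 6.07 in blood. Both regions were above blood, by 3.53 in HC (SE 0.163, adjusted p = 1.99e-08) and by 3.51 in PFC (SE 0.163, adjusted p = 2.02e-08). Crym passed the filter through its brain values alone, so the direction of these differences was built in. Between the regions the difference was 0.02 (SE 0.163, 95% interval -0.35 to 0.38, adjusted p = 0.984), and it was positive in rats 2 and 5 (0.37 and 0.03) and negative in rat 7 (-0.35). The PFC arrays spread more (SD 0.367) than those of HC (SD 0.0846).

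Klf9 encodes a zinc finger transcription factor that triiodothyronine induces in neurons and that glucocorticoids induce as well. Its probe set (10714413) read 8.82, 8.74 and 8.89 in HC, 9.11, 8.81 and 8.85 in PFC, and 6.84, 6.76 and 6.97 in blood, where it was present. It was higher than in blood by 1.96 in HC (SE 0.105, adjusted p = 5.88e-08) and by 2.07 in PFC (SE 0.105, adjusted p = 3.87e-08). HC minus PFC was -0.11 (SE 0.105, 95% interval -0.34 to 0.13, adjusted p = 0.727), and the regions overlapped.

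Leaving out Ttr and Slco1c1, which were not tested against blood, and Dio3, which did not pass the filter, 5 genes were tested in HC minus blood and 5 of 5 were higher, whereas of all probe sets tested 83.9% were called, 47.6% higher and 36.3% lower. In PFC minus blood 5 of 5 were higher, whereas of all tested 84.0% were called, 47.3% higher and 36.7% lower. Both comparisons use the same blood arrays. Dio2, Thra and Crym passed the filter through their brain values alone, so for these a positive difference was built into the count. The bars of the differences between tissues show the sizes.

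**Figure D3:**
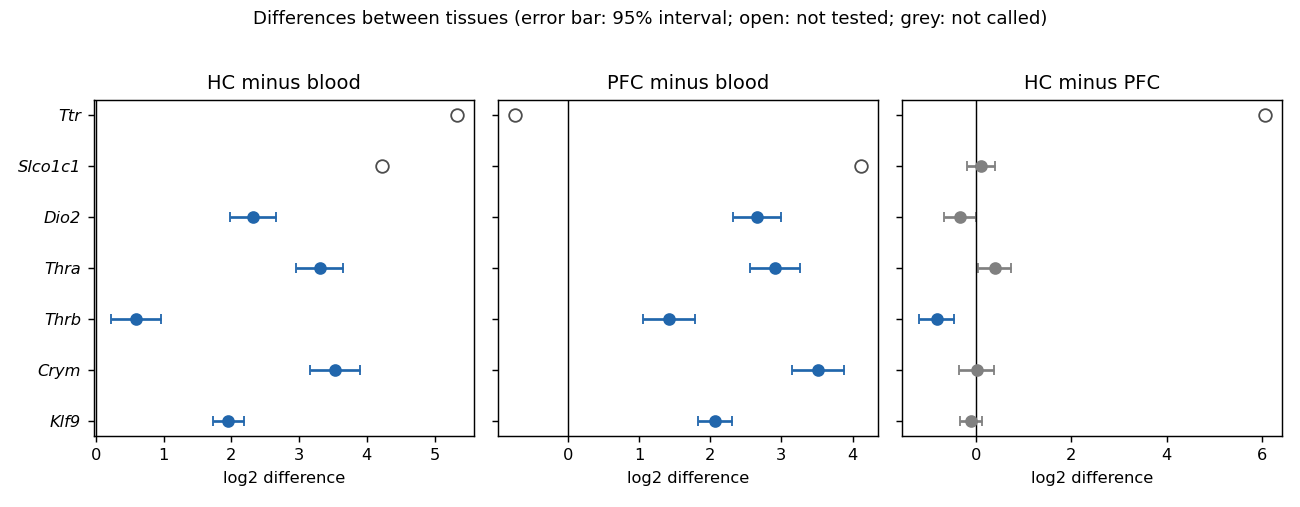
Differences between tissues (log2, x axis) for the 7 genes that passed the filter (y axis) in HC minus blood, PFC minus blood and HC minus PFC, with 95% intervals from the fit of all 9 arrays, open circles for values without a test, and grey for values not called. Against blood the 5 tested genes lie between 0.59 and 3.53, and in HC minus PFC Thrb alone (-0.82) is called, while Ttr (6.07) was not tested.

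In HC minus PFC, 6 genes were tested (Ttr excluded), of which 0 were higher and Thrb alone was lower by limma, against 4.51% of all tested that were higher and 4.66% that were lower. At an unadjusted p under 0.05, Thra was also higher and Dio2 lower, but the share of all probe sets past that threshold is not given here. Arrays of the regions did not overlap for Ttr, Thra and Thrb, against 42.0% of all probe sets tested. The median difference of all probe sets tested was 0.22 in HC minus blood, 0.20 in PFC minus blood and -0.00 in HC minus PFC. The medians of the absolute difference were 0.98, 0.97 and 0.12. Against blood, Dio2, Thra, Crym and Klf9 lay above the absolute medians in both regions, and Thrb did so in PFC (1.41) but not in HC (0.59). Of these genes, Dio2, Thra and Crym passed the filter through their brain values alone.

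The scale of the brain to blood differences rests on the normalization. A panel of 12 housekeeping genes had a mean of 9.17 in blood, 10.34 in HC and 10.42 in PFC, and centring the arrays on it moved the median of all tested to -1.24 in HC minus blood and -1.32 in PFC minus blood. On that scale 3240 probe sets were higher and 14828 lower in HC than in blood, against 8030 and 6133 before. Dio2 (1.15 in HC and 1.41 in PFC), Thra (2.13 and 1.66), Crym (2.35 and 2.26) and Klf9 (0.78 and 0.82) were still called higher in both regions on it. In bulk samples, a lower number of expressing cells and less RNA per cell cannot be told apart.

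Transporters and carriers of thyroid hormone beyond the 2 above went both ways against blood. Of 14 listed genes 11 were on the array and 7 were tested, 4 higher and 3 lower in HC than in blood and 3 higher and 3 lower in PFC, with medians of 0.59 and -0.01. Among all probe sets tested, 47.6% were higher and 36.3% lower in HC than in blood, and 47.3% and 36.7% in PFC. Of the 7, Slco1a4 and Slco2b1 passed the filter through their brain values alone and Slc16a10 through its blood values alone. Slc16a10, a transporter of aromatic amino acids and iodothyronines, had the widest difference, -5.75 in HC and -5.95 in PFC (SE 0.155), from a blood mean of 11.35 ± 0.127 (SD, n = 3). Slco1a4, an organic anion transporter of brain endothelium, read 3.98 higher in HC and 4.35 higher in PFC (SE 0.273), but its blood mean was below background, and with the blood values raised to the limit the differences were 3.24 and 3.60. Slc7a8, a light chain of amino acid transporters that also accept iodothyronines, was higher by 1.83 and 2.02 (SE 0.140). The other genes lower in both regions were Slc7a5 (-1.64 and -1.60) and its heavy chain Slc3a2 (-0.62 and -0.87), which were named after their values were seen.

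Between HC and PFC, 1 of these 7 genes was called, against 9.16% of all probe sets tested. This was Slco3a1, a widely used organic anion transporter, higher in HC by 0.60 (SE 0.106, adjusted p = 0.00598). It read about the same in PFC and blood, at -0.01 for the difference (adjusted p = 0.922). Without rat 2 its adjusted p was 0.131.

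Receptor partners and coregulators went both ways as well. Of 17 on the array 16 were tested, of which 7 were higher and 3 lower in HC than in blood, and 8 higher and 4 lower in PFC, with medians of 0.25 and 0.25. All probe sets tested went both ways too, with 47.6% higher and 36.3% lower in HC, and 47.3% and 36.7% in PFC. The coactivator gene Ppargc1a, which passed the filter through its brain values alone, read 2.94 higher in HC and 3.29 higher in PFC (SE 0.0891), or 2.02 and 2.37 with the blood values raised to the background limit. Ncoa1, the steroid receptor coactivator that also serves thyroid hormone receptors, was higher by 2.21 and 1.81 (SE 0.155). Gps2, a subunit of the corepressor complex, differed by -1.54 and -1.78 (SE 0.0766). Between the regions Ppargc1a was the 1 gene called of the 16, against 9.16% of all probe sets tested. It differed by -0.35 (SE 0.0891, adjusted p = 0.0382), lower in HC. Its 3 HC arrays held the same value (7.555, SD 0.0), as was so for 542 probe sets in HC, which narrows the spread. However, the adjusted p of Ppargc1a was 0.0692 with the rat as a block. The call was lost in 12 of 23 settings, with the adjusted p up to 0.281 without rat 2.

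Of 8 genes on the array that handle the deiodinases or break thyroid hormone down 5 were tested, and 4 were higher and 1 lower in each region than in blood, whereas 47.6% of all probe sets were higher in HC and 47.3% in PFC. The medians were 1.27 and 1.49. All 12 genes of the housekeeping panel were higher as well, by a mean of 1.18 in HC and 1.25 in PFC, and 3 of the 5 genes lay above these means in each region. Usp33 and Usp20 encode the enzymes that remove ubiquitin from Dio2 and so keep it active. Usp33 was higher by 2.16 and 2.18 (SE 0.108), Usp20 by 2.03 and 1.69 (SE 0.110), and the sulfotransferase gene Sult1a1 by 1.27 and 1.49 (SE 0.104). Sult1a1 passed the filter through its brain values alone, and with its blood values raised to the background limit it stood at 1.14 and 1.36. Secisbp2, which is needed to make selenoproteins such as the deiodinases and which was named after its values were seen, differed by -0.83 and -0.96 (SE 0.0994). Between HC and PFC 0 of the 5 were called by limma, against 1 higher at an unadjusted p under 0.05 and 1 in the fit of the 6 brain arrays. For all probe sets tested the called shares were 9.16% and, in the fit of the 6 brain arrays, 25.7%, and the share at an unadjusted p under 0.05 is not given here. Dio1, the deiodinase of liver and kidney, was below the cut-off in all 3 tissues.

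Genes of the thyroid axis and of hormone synthesis were mostly below the presence cut-off. Of 13 on the array 3 were tested, and the other 10, among them Trh, Tshb and Tg, were below 6.2 in all 3 tissues, although 4 of these were above the background limit in at least 1 tissue. Trhde, the enzyme that degrades thyrotropin-releasing hormone, passed the filter through brain alone and read 4.24 higher in HC and 4.33 higher in PFC (SE 0.195) than in blood, where its mean of 4.09 was below background. With the blood values raised to the limit the differences were 2.79 and 2.89. The transcription factor genes Foxe1 (-1.02 and -0.69, SE 0.185) and Nkx2-1 (-0.83 and -0.63, SE 0.189) were lower in both regions, but both passed the filter through their blood values alone.

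Of 14 genes on the array that are known to respond to thyroid hormone 13 were tested, and 12 were higher and 1 lower in each region than in blood, with medians of 2.18 in HC and 2.02 in PFC. Of the 12 higher genes, 6 (Hr, Reln, Rasd2, Thrsp, Bdnf and Pvalb) passed the filter through their brain values alone, and the lower gene passed through its blood values alone. The other 6 were present in blood and brain. The share of all probe sets that were higher was 47.6% in HC and 47.3% in PFC, and 9 of the 13 genes lay above the mean difference of the housekeeping panel in each region. Mbp, the myelin basic protein gene, was higher by 4.86 in HC and 4.06 in PFC (SE 0.309), Reln, the secreted cue of cortical layering, by 3.18 and 3.05 (SE 0.128), and Pvalb, the calcium-binding protein of a class of interneurons, by 2.86 and 3.71 (SE 0.315), or 2.5 and 3.35 with the blood values of Pvalb raised to the background limit. The lower gene was Pcp2, a Purkinje cell gene named after its values were seen, at -1.29 and -1.21 (SE 0.115). Between the regions 1 of 13 was called, against 9.16% of all probe sets tested. This was the calmodulin kinase gene Camk4 at -1.01 (SE 0.135, adjusted p = 0.0011), lower in HC. Without rat 2 its adjusted p was 0.0553.

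**Figure D4:**
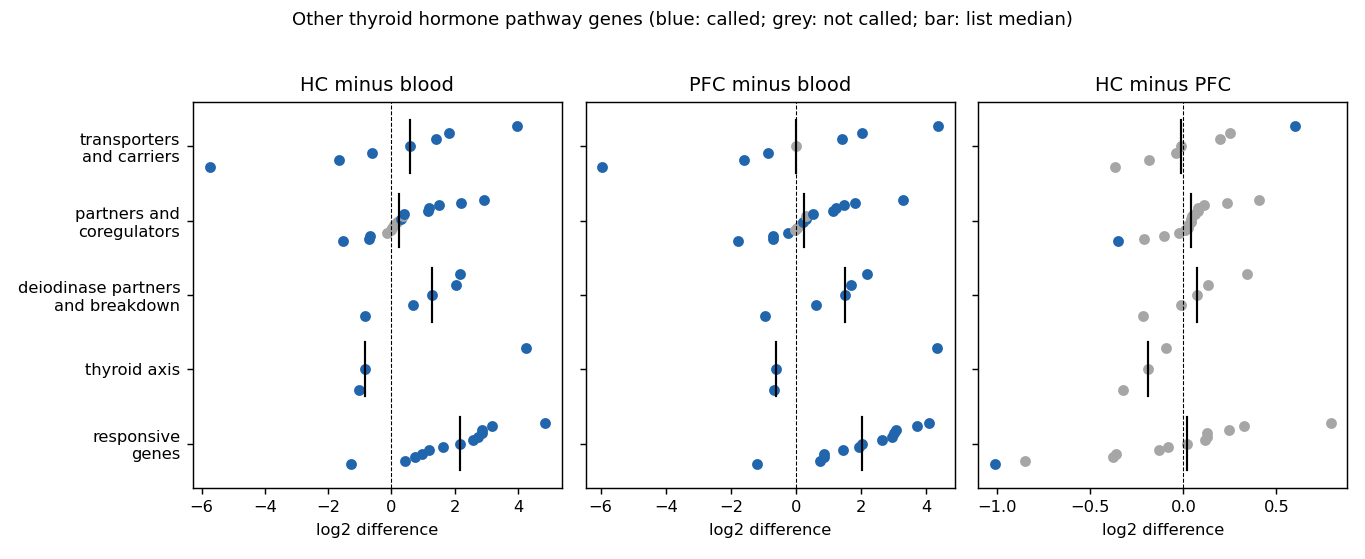
Differences between tissues (log2, x axis) of the other thyroid hormone pathway genes that passed the filter, 1 point per gene in 5 lists (y axis), blue where called and grey where not, with a bar at the median of each list. Against blood the points spread to both sides, from Slc16a10 (-5.75 in HC) to Mbp (4.86 in HC), whereas in HC minus PFC 3 genes of the 5 lists are called, Slco3a1 (0.60), Ppargc1a (-0.35) and Camk4 (-1.01).

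Genes with a pattern like that of each member were sought by Pearson's r over the 9 arrays among 6657 candidate genes. Each was taken by its brightest probe set that names that gene alone, had to pass the filter and had to range over at least 1. The 9 points are 3 tissues of the same 3 rats, so r describes mostly the order of the tissues. The genes most like Ttr were Nts, which encodes neurotensin (r = 0.990), C1ql2, a marker of dentate granule cells (0.988), the vesicular glutamate transporter gene Slc17a8 (0.976), Ksr1 (0.975) and Lrrc10b (0.975). C1ql2 read 8.60, 8.72 and 8.67 in HC of rats 2, 5 and 7, lowest in rat 2. Nts read 8.19, 7.92 and 7.46 in HC, 3.17 to 3.73 in PFC and 3.59 to 3.84 in blood, highest in rat 2.

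Ttr and Thrb had few close neighbours, with 1 gene each above an r of 0.99, whereas Slco1c1 had 736, Klf9 603, Crym 473 and Thra 470. The genes nearest to Thrb were Actn1, an actin crosslinker (0.991), Ing2 (0.988) and the ephrin gene Efnb2 (0.987), all highest in PFC. Nearest to Slco1c1 were Htra1, Map2 and S100b, and to Thra they were Zhx1, Kcnd2 and Galnt16, each at an r of 0.999. Dio2 was nearest to Marf1, Mmd and Adcy2 (0.994 each), Crym to Snx10, Rab3c and Dmd (0.997 each) and Klf9 to Rfng (0.999), Htt and Dusp3 (0.998 each). Dio3, with 10 genes above 0.99, was nearest to Rab25 and Cmtm7 (0.995 each) and Upk1a (0.994), which were all highest in blood.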

How the data were processed

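RNA from blood, HC and PFC of rats 2, 5 and 7 was measured on 9 arrays. The methods name 4 rats and 1 omitted sample and the labels name 6, so the animals were counted from the arrays. The authors quantile normalized the intensities, summarized them by RMA and deposited the values, taken here as log2 although no base is named. They range between 1.53 and 14.01. Depth does not apply to arrays, and their number limits the precision. The authors' detection p-values were not used here.

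Of 29215 probe sets, 15310 had a single symbol, and 15279 of these matched the GRCr8 gene table. Differences were fitted with limma 3.58.1 in R 4.3.3 (tissue as a factor, 9 arrays, no block, two-sided) over 16884 probe sets with a mean above 6.2 in at least 1 tissue, adjusted by Benjamini-Hochberg and called under 0.05. An exact permutation test of 3 against 3 arrays cannot go below 0.10. Members and gene lists were chosen with earlier results of these data known. All members were named, and from each list up to 4 genes with the widest called HC minus PFC difference and up to 3 with the widest brain to blood difference. Some further genes were named outside this rule. The procedure was tested on simulated data.

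The 3 tissues of a number came from the same rat by the labels. Deviations of same-numbered HC and PFC arrays from their tissue means correlated at 0.254, 0.137 and 0.287, and those of blood with HC or PFC at -0.079 to 0.052. Arrays of different numbers gave -0.261 to 0.028 for HC with PFC and -0.106 to 0.118 for blood with HC or PFC. The blood correlations therefore did not set same-numbered pairs apart. Alternatives covered the rat as a block, filters, scaling, variance models, arrays in the fit, the background limit, the threshold and leaving out arrays or rats.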

Additional observations from a re-analysis of the deposited data

How the results depend on the processing

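Of 384 tested values of members under alternative settings, 364 kept their direction and their side of the threshold, 8 lost and 6 gained the call, and 6 changed sign. Of 120 values without a test, 4 moved by more than the spread. Thrb in HC minus blood turned to -0.58 when the arrays were centred on the housekeeping panel. Crym in HC minus PFC, never called, ran from -0.16 to 0.22 when arrays or rats were left out, with negative values of -0.01, -0.00, -0.13, -0.04 and -0.16.

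Centring on the housekeeping panel gave 2 members lower in HC than in blood (Thrb and Dio3, which then passed the filter) and 1 lower in PFC (Dio3), and 1 (Thra) higher in HC than in PFC. With no filter, 1 (Dio3) was lower in each region than in blood, where 13581 of all probe sets were lower and 8463 higher in HC than in blood. Thra was the 1 member higher in HC than in PFC with array weights, in the 6 brain arrays, in these with the replicate block (chosen after seeing the data) and without the blood array of rat 5. With array weights 2 members were lower in HC (Thrb and Dio2), and at an adjusted p under 0.01 the count was 0. Array weights also raised the number of all probe sets called higher in HC than in PFC. The number of all probe sets called lower with them is not given here. Leaving out arrays or rats gave 0 to 1 lower and 0 to 1 higher. The replicate block in the fit of all arrays gave 5 and 5 members higher than blood, and 0 higher and 1 lower in HC than in PFC, so it changed no call of a member.

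All probe sets called higher in HC than in PFC numbered 761, against 2276 with array weights, 2136 in the 6 brain arrays (2162 with the block), 1303 without the blood array of rat 5, 416 at 0.01, and 318 without rat 7. At a presence cut-off of 7.2 no member was present in blood (0), and above the background limit 5 were. Averaging the probe sets of a gene was not run, since each member has 1. The cause of these changes was not tested.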
